A study of Mus musculus with 9 samples.

Results

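The nuclear-encoded subunits of respiratory complexes II, III and V, 6 subunits of complex IV and cytochrome c were followed in the gastrocnemius, the main calf muscle, of female mice. Members were chosen by gene symbol (the Sdh, Uqcr and Atp5 families, Cyc1, Cycs, Cox5a, Cox5b, Cox6b1, Cox6c, Cox7b and Cox7c), without symbols marked as pseudogenes and with at least 30 counts over the libraries. The rule took 37 of the 56791 genes in the table: 4 of complex II, 9 of complex III, 6 of complex IV, 17 of complex V and cytochrome c. No expression difference entered the rule, although the set was proposed with earlier results of these data in view. All 37 also passed the filter on low counts that left 17534 genes for testing. The least counted, Atp5k, had 59465 counts in total.

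The 9 libraries of RNA sequencing came from 3 groups of 3. Young mice, whose titles hold 3M, and aged mice, whose titles hold 23M, received saline vehicle. A further aged group received ginkgolide B (GB), a terpene lactone from ginkgo leaves, at 12 mg per kg, and its titles give no age. Gavage was daily for 2 months in all groups, and the labels used here name no strain or allele. Whether the 3 libraries of a group stem from 3 animals is not given there, so p-values measure the spread between libraries only, which may be technical.

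Complex II (succinate dehydrogenase) oxidises succinate in the citric acid cycle and passes the electrons to ubiquinone. Complex III hands them on to cytochrome c, a small soluble carrier, and complex IV (cytochrome c oxidase) passes them to oxygen. Complexes III and IV pump protons across the inner mitochondrial membrane, and complex V (ATP synthase) lets protons flow back through a rotating ring and makes ATP. Complexes III, IV and V combine nuclear-encoded subunits with a few subunits encoded by mitochondrial DNA, whereas complex II is wholly nuclear-encoded. Muscle uses this system for sustained contraction, and oxidative fibres hold more of it than fast glycolytic ones.

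Promoters are shown for 3 members that hold the NRF1 motif searched here, because nuclear respiratory factor 1 is a textbook regulator of respiratory chain genes: cytochrome c, the small complex III subunit Uqcr11, and ATP synthase subunit g (Atp5l). Each runs 5′ to 3′ on the gene's strand, from 250 bases before to 50 after the RefSeq start (GRCm38.p6), and capitals mark motif matches. Cycs lies on the minus strand at chr6:50566520-50566819, Uqcr11 on the minus strand at chr10:80406772-80407071 and Atp5l on the minus strand at chr9:44920693-44920992.
Cycs: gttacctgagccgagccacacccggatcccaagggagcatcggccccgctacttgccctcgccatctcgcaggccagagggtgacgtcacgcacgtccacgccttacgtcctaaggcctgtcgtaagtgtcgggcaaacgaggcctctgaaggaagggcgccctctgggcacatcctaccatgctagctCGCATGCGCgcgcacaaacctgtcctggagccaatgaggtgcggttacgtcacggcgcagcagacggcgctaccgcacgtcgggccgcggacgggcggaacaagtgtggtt
Uqcr11: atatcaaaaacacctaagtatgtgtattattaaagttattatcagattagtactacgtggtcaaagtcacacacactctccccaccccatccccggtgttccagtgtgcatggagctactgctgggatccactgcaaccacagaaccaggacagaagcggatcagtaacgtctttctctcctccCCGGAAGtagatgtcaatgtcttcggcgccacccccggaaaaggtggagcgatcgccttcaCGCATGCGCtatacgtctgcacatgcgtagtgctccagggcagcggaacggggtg
Atp5l: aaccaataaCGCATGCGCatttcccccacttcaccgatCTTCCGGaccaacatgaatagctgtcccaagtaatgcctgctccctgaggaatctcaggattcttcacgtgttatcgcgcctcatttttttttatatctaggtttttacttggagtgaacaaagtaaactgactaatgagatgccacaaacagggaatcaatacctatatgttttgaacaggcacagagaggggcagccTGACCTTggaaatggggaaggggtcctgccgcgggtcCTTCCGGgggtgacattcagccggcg
Motifs were read on both strands, and in these promoters no match overlaps another. The NRF1 match in all 3 is the motif GCGCATGCG read from the other strand, CGCATGCGC. The motif, on either strand, stood in the promoters of 6 of the 29 members with a RefSeq promoter (20.7%): Atp5g2, Atp5k, Atp5l, Cycs, Uqcr11 and Uqcrc1. Of 32851 promoters of the same length it stood in 1.75%. The ETS motif CCGGAAG, which the factor GABP binds, was held by 11 of 29 members (37.9%) and by 8.86% of all promoters. The motif AAGGTCA, bound by the oestrogen-related receptors, was held by 5 of 29 (17.2%) against 4.72%, and the YY1 motif AAGATGGC by 3 of 29 (10.3%) against 2.75%. Further capitals in Uqcr11 and Atp5l are the ETS motif on either strand, and the run TGACCTT in Atp5l is the receptor motif on the other strand. A match describes letters in a window, and no binding was measured.

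Levels are given as CPM, counts relative to library size, after TMM scaling, which aligns libraries on the bulk of their genes. Total counts were 51543383 to 61680520 in the young vehicle, 52068522 to 54095457 in the aged vehicle and 39478427 to 44294097 in the GB libraries. Members took 1.52 to 1.65%, 1.81 to 2.02% and 1.56 to 1.82% of those counts, and mitochondrially encoded genes took 8.60 to 10.2%, 13.9 to 15.3% and 24.3 to 26.1%. Ribosomal RNA of the mitochondria took 0.0927 to 0.143% in young vehicle, 0.283 to 0.414% in aged vehicle and 1.06 to 1.59% in GB libraries. The 8 skeletal muscle markers summed to 138366 to 148042 CPM, 98531.6 to 113692 CPM and 148144 to 173491 CPM, so the markers of the labelled tissue were abundant in every library. No batch is labelled, and an effect of GB cannot be told apart from one of how the GB libraries were prepared.

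The design first set aged against young muscle, both under vehicle. Every one of the 37 members had a higher fitted level in aged vehicle than in young vehicle muscle, by 0.06 to 0.59 on the log2 scale. Of these, 15 rose past an adjusted p of 0.05 (edgeR's quasi-likelihood test, Benjamini-Hochberg over all genes tested) and none fell. Among all genes tested, 4.32% rose and 4.28% fell by that rule. The median log2 fold change was 0.25 over the members and -0.0022 over all genes. Bulk RNA cannot separate more RNA per fibre from a different mix of cells.

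**Figure D1:**
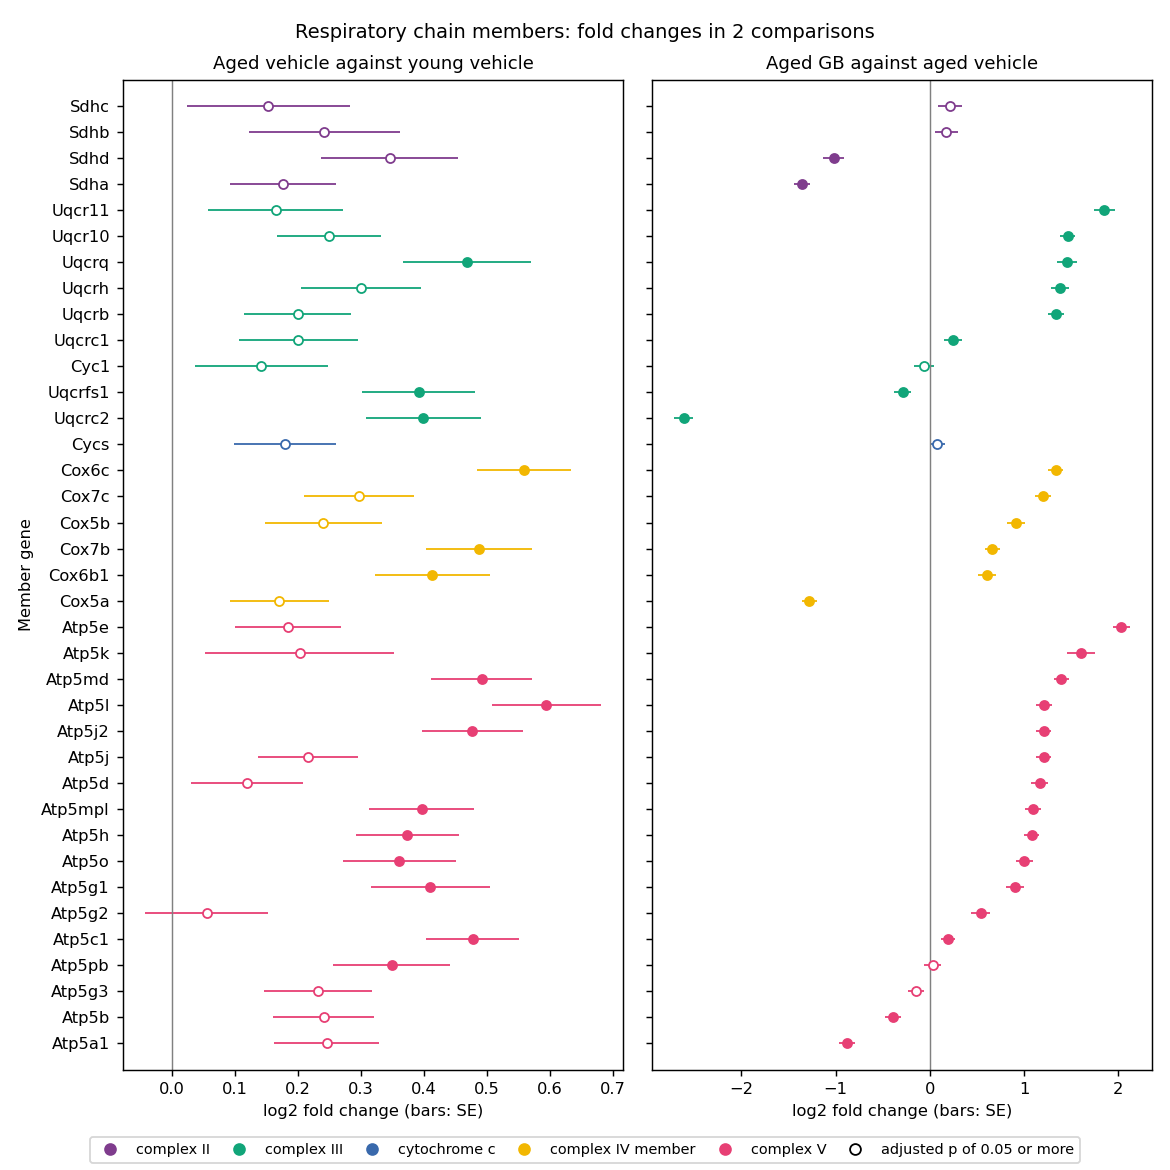
Log2 fold change of each member (x axis, bars are SE; 3 libraries per group) for aged against young vehicle (left) and aged GB against aged vehicle (right), with different x scales. Filled points passed an adjusted p of 0.05: all 37 points lie right of 0 on the left, while 24 filled points lie right and 7 left of 0 on the right.

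ATP synthase held 9 of the 15 rises among its 17 members. Atp5l, subunit g of the membrane sector, where the enzyme forms dimers, had 101, 99.7 and 90.9 CPM in young vehicle, 136, 150.3 and 154 in aged vehicle and 326, 371 and 319.9 in aged GB libraries. Its aged vehicle libraries all lay above the young ones, with a log2 fold change of 0.59 (SE 0.09, adjusted p = 0.00127). Beside it, Atp5md (DAPIT) rose by 0.49 (adjusted p = 0.00268), Atp5j2 (subunit f) by 0.48 (adjusted p = 0.00316) and Atp5mpl (the 6.8 kDa proteolipid in older naming) by 0.40 (adjusted p = 0.0111), so 4 small membrane subunits rose together.

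In the F1 head, which holds the catalytic sites, Atp5c1, the gamma subunit and central shaft, rose by 0.48 (SE 0.07, adjusted p = 0.002). The alpha subunit Atp5a1 and the catalytic beta subunit Atp5b had fold changes of 0.25 (SE 0.08, adjusted p = 0.095) and 0.24 (SE 0.08, adjusted p = 0.0875) and did not pass. The small head subunits Atp5d (delta) and Atp5e (epsilon) also did not pass, at 0.12 (adjusted p = 0.478) and 0.18 (adjusted p = 0.219). In the peripheral stalk, which holds the head still, 3 of 4 subunits rose: Atp5o (OSCP) by 0.36 (adjusted p = 0.0264), Atp5h (subunit d) by 0.37 (adjusted p = 0.0138) and Atp5pb (subunit b) by 0.35 (adjusted p = 0.036). The fourth, Atp5j (F6), had 0.22 (adjusted p = 0.12). The remaining rise was Atp5g1, 1 of 3 genes for the ring subunit c, described with its partners below. Atp5k (subunit e) had 0.20 (adjusted p = 0.479), with overlapping groups.

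In complex IV, 3 of 6 members rose. Cox6c, a single-span subunit of the membrane part, had 267, 275 and 243 CPM in young vehicle, 369, 389 and 398 in aged vehicle and 1017, 958 and 938 in aged GB libraries. The young and aged vehicle libraries did not overlap, and the log2 fold change of 0.56 (SE 0.07, adjusted p = 0.000771) had the lowest adjusted p of any member in this comparison. Cox7b, also a membrane subunit, rose by 0.49 (SE 0.08, adjusted p = 0.00385), and Cox6b1, on the side where cytochrome c docks, by 0.41 (SE 0.09, adjusted p = 0.0145). Cox6b1 had 201, 226 and 189 CPM in young vehicle, 256, 287 and 278 in aged vehicle and 458, 394 and 398 in aged GB libraries. Cox5a, a matrix-side subunit, had the lowest fold change of the 6, 0.17 (adjusted p = 0.226), and Cox5b and Cox7c did not pass either.

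In complex III, 3 of 9 members rose. Uqcrq, a small membrane subunit that sits beside cytochrome b, had 259, 306 and 229 CPM in young vehicle, 335, 385 and 379 in aged vehicle and 1019.5, 1040.2 and 951 in aged GB libraries. Its highest young vehicle library stayed below its lowest aged one, with a log2 fold change of 0.47 (SE 0.10, adjusted p = 0.0139). Uqcrc2, the core 2 protein on the matrix side, rose by 0.40 (SE 0.09, adjusted p = 0.0184). Uqcrfs1, the Rieske iron-sulfur protein that moves electrons from ubiquinol to cytochrome c1, had 389, 429 and 406 CPM in young vehicle, 528, 529 and 551 in aged vehicle and 493, 439 and 385 in aged GB libraries. It rose with age by 0.39 (SE 0.09, adjusted p = 0.018), without overlap. Cyc1 (cytochrome c1) had the lowest fold change of the complex, 0.14 (adjusted p = 0.479), with overlapping groups.

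Neither complex II nor cytochrome c had a member that passed. The 4 complex II fold changes ran from 0.15 for Sdhc to 0.35 for Sdhd, whose adjusted p was 0.0699. The young and aged vehicle libraries did not overlap for any of these 4 genes, but the share of all genes tested without overlap was not counted. Cycs had 243, 273 and 251 CPM in young vehicle, 267, 296 and 307 in aged vehicle and 321, 304 and 295 in aged GB libraries. Its young and aged vehicle values overlapped (log2 fold change 0.18, SE 0.08, adjusted p = 0.209).

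The count of 15 depended on single libraries: it was 6 without young vehicle replicate 3, 7 without aged vehicle replicate 2 and 6 without aged vehicle replicate 3. Atp5c1, Atp5j2, Atp5l, Atp5md, Cox6c and Cox7b were called in all 19 alternative fits at the main threshold. These include leaving out each vehicle library in turn, while the stricter thresholds are not among the 19.

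The design then set GB against vehicle in aged muscle. Within complexes III, IV and V some subunits rose and others fell. Of the 37, 24 rose, 7 fell and 6 did not pass, beside 24.4% of all genes tested that rose and 28.8% that fell. The median log2 fold change was 0.91 over the members and -0.05 over all genes, with a span from -2.61 to 2.03. Both comparisons use the same aged vehicle libraries, so they are not independent. Scaling matters here: with library totals in place of TMM factors the median of all genes was -0.62, 19 members rose and 14 fell, and 11.6% and 48% of all genes did. Signs are also given below where they turned with an offset, which removes each library's trend of counts on the table's gene length (length offset), on coding length, or on coding length and GC content. Under library totals and all 3 offsets, 7 of the 24 rises passed.

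**Figure D2:**
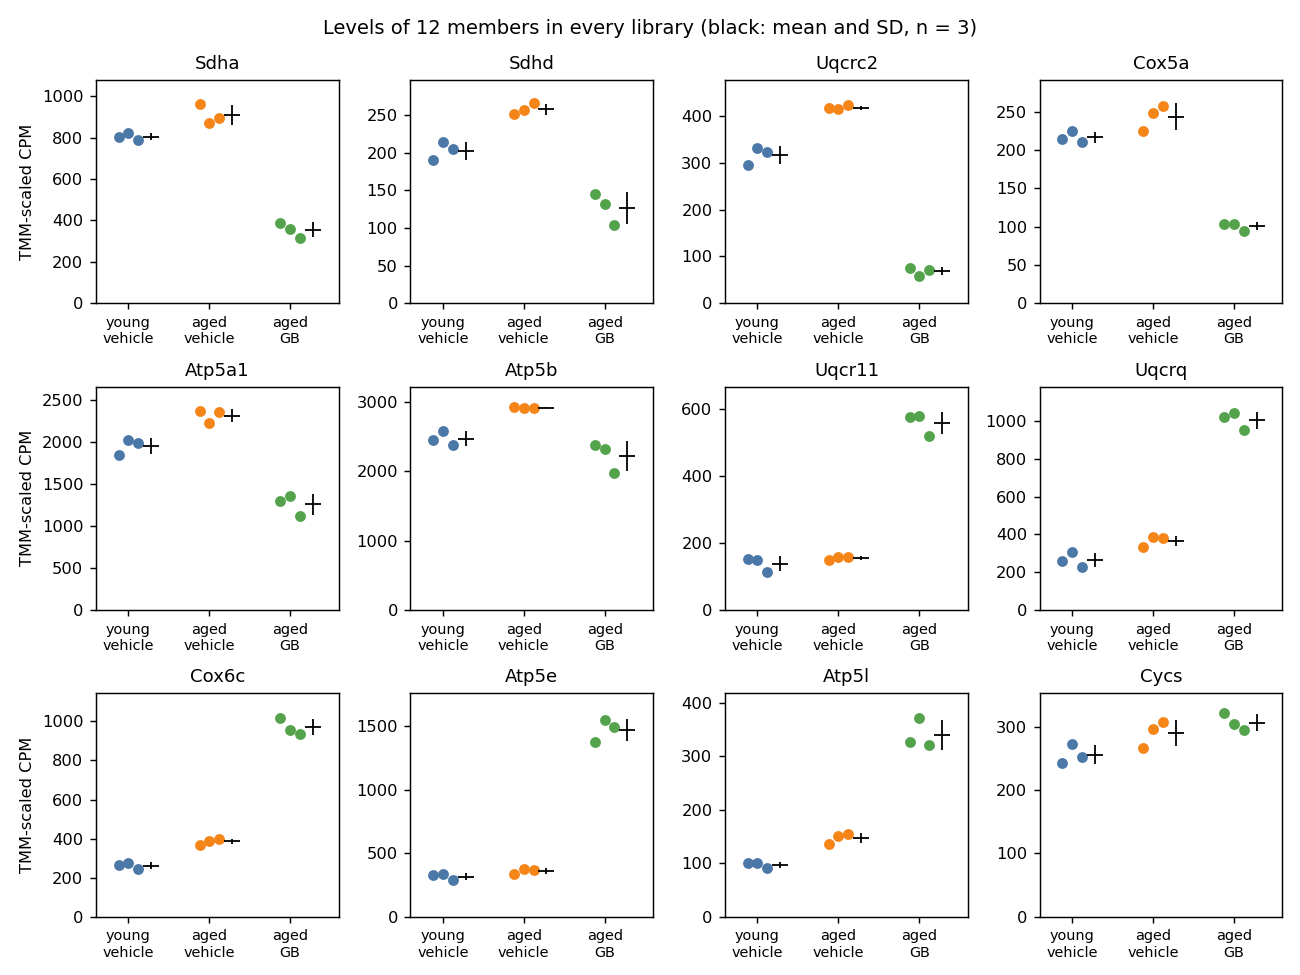
TMM-scaled CPM (y axis, from 0) of 12 members in each of the 9 libraries (points), with mean and SD of 3 in black. The GB libraries lie below all vehicle libraries for Sdha, Sdhd, Uqcrc2, Cox5a and Atp5a1, and above them for Uqcr11, Uqcrq, Cox6c, Atp5e and Atp5l.

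Complex III held the widest split. Uqcrc2 had 296, 332 and 324 CPM in young vehicle, 417, 415 and 423 in aged vehicle and 75.8, 59.1 and 70.5 in aged GB libraries. The 3 GB libraries lay far below all 6 vehicle libraries, a 6.11-fold fall (log2 fold change -2.61, SE 0.10, adjusted p = 9.92e-10), the deepest of any member. Its partner Uqcrc1 (core 1), which pairs with it on the matrix side, had 431, 542 and 491 CPM in young vehicle, 556, 561 and 565 in aged vehicle and 726, 668 and 599 in aged GB libraries. That is a log2 fold change of 0.24 (SE 0.09, adjusted p = 0.0446), upward, a call that was lost in 11 of 19 alternatives and a sign that turned with library totals. For this and the other subunit pairs below, chosen after their values were seen, counts were also set against each other within each library, where scaling cancels but the trend on length described below does not. There were 0.653 ± 0.0383 Uqcrc2 counts per Uqcrc1 count in young vehicle, 0.746 ± 0.00557 in aged vehicle and 0.103 ± 0.0146 in GB libraries (SD, n = 3), 7.21-fold lower with GB than with aged vehicle.

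Among all genes, 62.9% of those with coding sequences up to 300 bases rose with GB, and 56.1% of those of 300 to 500. Beside these shares, the 5 small subunits of complex III all rose. Uqcr11, the smallest, had 152, 150.3 and 112 CPM in young vehicle, 149, 158 and 158 in aged vehicle and 578, 578 and 520.1 in aged GB libraries. The GB libraries all lay above the vehicle libraries, 3.61-fold over aged vehicle (log2 fold change 1.85, SE 0.11, adjusted p = 3.75e-08). With the coding length and GC offset Uqcr11 did not pass (0.091, adjusted p = 0.397). Uqcr10, a single-span subunit on the side of cytochrome c1, had 188, 200.2 and 172 CPM in young vehicle, 216, 217 and 232 in aged vehicle and 628, 639.8 and 563 in aged GB libraries. It rose 2.75-fold (adjusted p = 2.73e-08), though its sign turned with the coding length and GC offset. With the coding length offset Uqcr10 did not pass (0.15, adjusted p = 0.0993). Uqcrq rose 2.74-fold (adjusted p = 1.77e-07). Uqcrh, the acidic hinge protein that helps cytochrome c1 meet cytochrome c, rose by 1.38 on the log2 scale (adjusted p = 1.43e-07) and Uqcrb, a matrix-side subunit near the ubiquinone site, by 1.34 (adjusted p = 6.95e-08). The redox subunits differed from these: Uqcrfs1 fell, 1.22-fold (adjusted p = 0.0167), and Cyc1, with 364, 427 and 383 CPM in young vehicle, 409.9, 438 and 448 in aged vehicle and 473, 420.1 and 349 in aged GB libraries, had -0.06 (adjusted p = 0.666). The Uqcrfs1 call was lost without aged vehicle replicate 3, without GB replicate 3 and with upper-quartile factors, with an adjusted p of at most 0.0981.

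Complex II had no rise and 2 falls. Sdha, the flavoprotein that oxidises succinate, had 803, 822 and 789 CPM in young vehicle, 964, 870.3 and 893 in aged vehicle and 389, 359 and 316 in aged GB libraries. Sdhb, the iron-sulfur subunit bound to it, had 346, 389 and 343 CPM in young vehicle, 407, 424 and 444 in aged vehicle and 579.6, 468 and 391 in aged GB libraries. The GB libraries of Sdha lay below every vehicle library, 2.56-fold lower than aged vehicle (log2 fold change -1.36, SE 0.09, adjusted p = 5.89e-08). Those of Sdhb overlapped the aged vehicle libraries (log2 fold change 0.17, SE 0.12, adjusted p = 0.243).

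The membrane anchors, Sdhc and Sdhd, form the ubiquinone site together. Sdhc had 236, 253 and 241 CPM in young vehicle, 265, 276 and 271 in aged vehicle and 393, 298 and 249.7 in aged GB libraries, and Sdhd had 190.1, 214 and 205 CPM in young vehicle, 251, 256 and 266 in aged vehicle and 146, 132 and 104 in aged GB libraries. Sdhd fell 2.03-fold, without overlap (log2 fold change -1.02, SE 0.11, adjusted p = 6.52e-06), while Sdhc, with overlapping groups, had 0.21 (SE 0.13, adjusted p = 0.186). Within libraries, Sdha counts per Sdhb count were 2.24 ± 0.115 in young vehicle, 2.14 ± 0.197 in aged vehicle and 0.749 ± 0.0696 in GB (SD, n = 3). Sdhd counts per Sdhc count were 0.834 ± 0.0238, 0.954 ± 0.0255 and 0.410 ± 0.0364 in the same order. The calls of the partners depended on the scaling: Sdhb was lower with library totals (-0.39, adjusted p = 0.0237), and Sdhc with the coding length offset (-0.43, adjusted p = 0.00513) and with coding length and GC (-0.30, adjusted p = 0.0421).

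**Figure D3:**
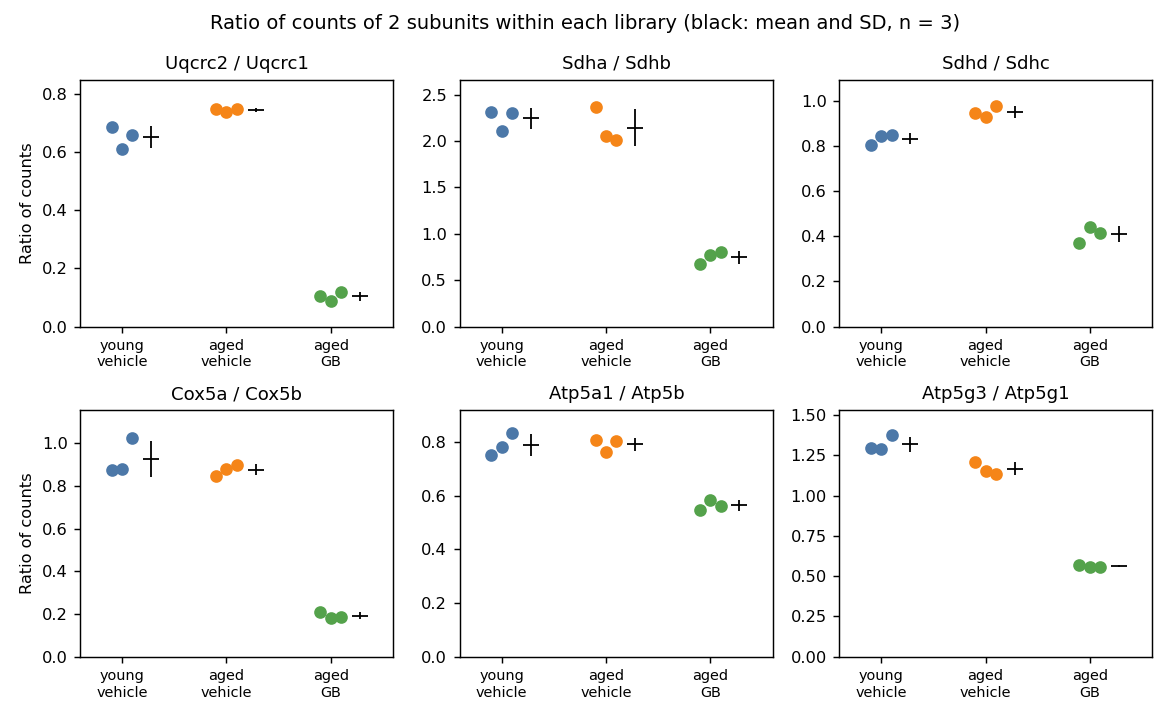
Ratio of the counts of 2 genes of 1 complex (y axis, from 0) within each library (points), with mean and SD of 3 in black. The 6 pairs were chosen after their values were seen, each with the gene of lower GB fold change as numerator. The shared direction follows from that choice: the GB libraries lie below every vehicle library, the furthest for Uqcrc2 to Uqcrc1 (0.103 against 0.746 in aged vehicle).

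Complex IV split in the same way. Cox5a had 214, 224 and 211 CPM in young vehicle, 224, 249 and 258 in aged vehicle and 104, 103 and 94.3 in aged GB libraries. All GB libraries lay below all vehicle libraries, 2.42-fold under aged vehicle (log2 fold change -1.28, SE 0.08, adjusted p = 5.98e-08). The other 5 members rose: Cox6c 2.52-fold (adjusted p = 2.56e-08), Cox7c 2.30-fold (adjusted p = 2.34e-07), Cox5b 1.88-fold (adjusted p = 4.27e-06), Cox7b 1.58-fold (adjusted p = 2.75e-05) and Cox6b1 1.52-fold (adjusted p = 0.000114), of which Cox7b and Cox6b1 turned negative with all 3 offsets and Cox7c with the coding length offset. With that last offset Cox6c (0.14, adjusted p = 0.0767) and Cox5b (0.083, adjusted p = 0.468) did not pass either. Cox5a and Cox5b both lie on the matrix side, and their count ratio was 0.926 ± 0.0857 in young vehicle, 0.876 ± 0.0249 in aged vehicle and 0.193 ± 0.0156 in GB libraries (SD, n = 3).

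In complex V, 13 of 17 members rose and 2 fell. The 2 falls were the large head subunits that form the catalytic hexamer. Atp5a1 had 1840.4, 2027 and 1981 CPM in young vehicle, 2363, 2222 and 2349 in aged vehicle and 1299, 1355 and 1112 in aged GB libraries. Atp5b had 2446, 2588 and 2374 CPM in young vehicle, 2927, 2907 and 2921 in aged vehicle and 2381, 2320.0 and 1979 in aged GB libraries. Atp5a1 fell 1.84-fold (log2 fold change -0.88, SE 0.08, adjusted p = 2.39e-06), below all vehicle libraries. Atp5b fell 1.31-fold (log2 fold change -0.39, SE 0.08, adjusted p = 0.00133), below the aged vehicle libraries only: its GB and young vehicle values overlapped.

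The small head subunits did the opposite. Atp5e, the epsilon subunit and the shortest protein among the members, had 330.5, 334 and 285 CPM in young vehicle, 337, 373 and 370.0 in aged vehicle and 1377, 1549 and 1493 in aged GB libraries. Its GB libraries all lay above the vehicle libraries, with the largest rise of any member, 4.09-fold (log2 fold change 2.03, SE 0.09, adjusted p = 2.99e-09). Atp5d rose by 1.17 on the log2 scale (adjusted p = 3.23e-07), but did not pass with the coding length and GC offset (0.15, adjusted p = 0.101). Atp5c1 had 424, 489 and 464 CPM in young vehicle, 627, 628 and 662 in aged vehicle and 752, 738 and 699.6 in aged GB libraries and a log2 fold change of 0.19 (SE 0.07, adjusted p = 0.0454), a call that was lost in 14 of 19 alternatives and a sign that turned with library totals and with the length and coding length offsets. In the assembled head, 1 epsilon subunit belongs with several beta subunits, and Atp5e counts per Atp5b count were 0.128 ± 0.00748 in young vehicle, 0.123 ± 0.00725 in aged vehicle and 0.667 ± 0.0880 in GB libraries (SD, n = 3). These 2 genes differ in coding length, 156 against 1587 bases, and with the coding length offset their GB log2 fold changes were 0.59 and -0.25.

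The membrane and stalk subunits mostly rose. Atp5k (subunit e) rose 3.04-fold (adjusted p = 3.34e-06), Atp5md by 1.39 on the log2 scale (adjusted p = 3.13e-08), and Atp5j2, Atp5l and Atp5mpl by 1.21, 1.21 and 1.10, the last turning negative with the coding length offsets. Atp5k, Atp5j2 and Atp5md did not pass with the coding length offset. They had 0.37 (adjusted p = 0.0568), 0.11 (adjusted p = 0.158) and 0.017 (adjusted p = 0.85) there. In the stalk, Atp5j rose by 1.21 (0.055 with the coding length and GC offset, adjusted p = 0.648), Atp5h by 1.08 and Atp5o by 1.00. Their partner Atp5pb, the long helical subunit b, had 412, 487 and 454 CPM in young vehicle, 534, 583 and 606 in aged vehicle and 644, 587 and 530.0 in aged GB libraries. Its GB and aged vehicle libraries overlapped (log2 fold change 0.03, SE 0.09, adjusted p = 0.804).

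Subunit c, which forms the rotating ring, is made from 3 genes whose mature proteins are the same and whose import sequences differ. Atp5g1 had 295, 335 and 281 CPM in young vehicle, 369, 409 and 432 in aged vehicle and 799, 787 and 682 in aged GB libraries. Atp5g2 had 144, 150.1 and 134 CPM in young vehicle, 156, 147 and 142 in aged vehicle and 238, 224 and 184 in aged GB libraries. Atp5g3 had 382, 432 and 386 CPM in young vehicle, 447, 472 and 489.5 in aged vehicle and 453, 439.8 and 380.2 in aged GB libraries. With age, Atp5g1 rose by 0.41 (SE 0.09, adjusted p = 0.0184), while Atp5g2 (log2 fold change 0.06, SE 0.10, adjusted p = 0.806) and Atp5g3 (log2 fold change 0.23, SE 0.09, adjusted p = 0.124) did not pass. With GB, Atp5g1 rose by 0.91 (SE 0.09, adjusted p = 5.14e-06) and Atp5g2 by 0.54 (SE 0.10, adjusted p = 0.000526), which turned negative with library totals and all 3 offsets, and Atp5g3, at -0.15 (SE 0.09, adjusted p = 0.177), did not pass. Atp5g1 did not pass with the coding length offset (0.11, adjusted p = 0.243). Of the counts of the 3 genes, Atp5g3 held 47.3 ± 0.845% in young vehicle, 46.0 ± 0.0610% in aged vehicle and 30.4 ± 0.102% in GB libraries (SD, n = 3). Atp5g1 held 35.8 ± 0.718%, 39.5 ± 1.35% and 54.2 ± 0.556%. By counts, then, the largest share was that of Atp5g3 in each vehicle library and that of Atp5g1 in each GB library. Per kilobase of the table's gene length, the mean of Atp5g3 stayed above that of Atp5g1 in every group (194.6 against 153.9 CPM per kilobase in GB libraries). These genes share coding sequence and have pseudogenes, so reads may have been split between them in counting.

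Cytochrome c shuttles electrons from complex III to complex IV. Its GB libraries overlapped the aged vehicle libraries, with a log2 fold change of 0.08 (SE 0.08, adjusted p = 0.427).

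Mean levels of genes were also set side by side per kilobase of the table's gene length, as a description. That length can far exceed the coding length (6443 against 309 bases for Atp5l), and the ranks depend on it. In both vehicle groups Sdha led complex II (195 and 220.4 CPM per kilobase in young and aged vehicle) and Atp5a1 led complex V (622 and 737). In the GB libraries Sdhb led complex II (214, against 161 in young and 189.8 in aged vehicle), and Atp5e led complex V (839, against 180.4 and 205). Atp5b was second in complex V in all 3 groups, with 583, 689 and 526 CPM per kilobase. In complex III the leading gene was Uqcr10 in young vehicle (319) and in GB libraries (1045), and Uqcrfs1 in aged vehicle (393 against 379.7 for Uqcr10). Cox6b1 led complex IV members in every group, with 290.4, 387 and 588, and Cycs had 75.2, 85.2 and 90.1.

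Shorter coding sequences had higher GB fold changes. Over the 14199 genes with a known coding length (81.0% of those tested), the median GB log2 fold change was 1.16 for coding sequences up to 300 bases, 0.79 for 300 to 500, 0.31 for 500 to 1000 and -0.05 for 1000 to 2000. All 13 members up to 300 bases rose (median 1.38), beside 62.9% of all genes of that class. Of the 5 members between 1000 and 2000 bases 4 fell and 1 rose, beside 28.1% and 20.8% of their class. The median of these 5, -0.88, lay well below that of the class. Spearman's rho between coding length and GB fold change was -0.801 over the 37 members and -0.418 over all genes, given as a description, since genes share libraries. With the table's gene length, which counts all exons, it was -0.366 and -0.345. For age and coding length it was -0.23 and 0.036, and the class medians of all genes lay between -0.03 and 0.03. Between GC content and fold change, rho over the members was -0.47 for age and 0.18 for GB.

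**Figure D4:**
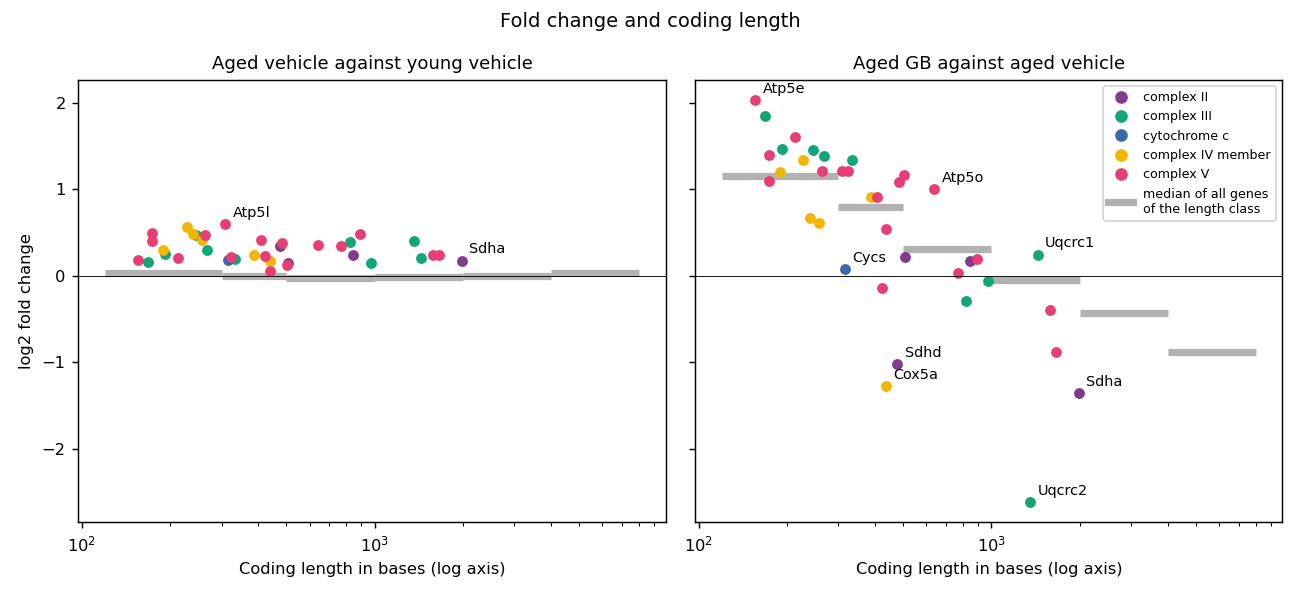
Log2 fold change (y axis) against coding length in bases (log x axis) of each member, for aged against young vehicle (left) and aged GB against aged vehicle (right); grey bars are the median of all genes in each length class. On the right the bars step down from 1.16 to -0.88 and most members lie near them, with Uqcrc2, Cox5a, Sdhd and Sdha well below.

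With each library's trend on coding length removed, an alternative chosen after seeing the data, 11 members rose with GB and 14 fell, beside 24.1% and 24.8% of the genes fitted, and the members' median was -0.0031. The falls of Uqcrc2, Cox5a, Sdhd and Sdha stayed, at -2.55, -2.02, -1.71 and -1.08 on the log2 scale, as did those of Atp5a1 (-0.71), Atp5b (-0.25) and Uqcrfs1 (-0.54). Sdhd and Cox5a are short (159 and 146 residues), and genes of their class had a median of 0.79 before the removal. Of the 24 rises, 7 passed under library totals and each length or GC removal tried: Atp5e (0.59 with coding length removed), Atp5o (0.56), Uqcrb (0.41), Atp5h (0.41), Uqcrq (0.31), Uqcrh (0.29) and Atp5l (0.23). Cycs, which did not pass in the main test, fell by 0.89 with coding length removed (adjusted p = 4.23e-07), and Atp5g3 by 0.92 (adjusted p = 4.22e-07). The share of mitochondrial ribosomal RNA also differed between GB and vehicle libraries, and its part in these results was not tested.

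Other genes of the pathway were read from lists. Their counts stand beside shares over all genes tested: 4.32% up and 4.28% down with age, 24.4% up and 28.8% down with GB. The lists were read without an offset, so their GB counts were not adjusted for coding length. Of all genes with coding sequences up to 300 bases 62.9% rose with GB, and 56.1% of those of 300 to 500 bases. With age, all 36 nuclear complex I subunits tested had positive log2 fold changes (median 0.25), and 8 rose, among them Ndufb5 (0.59, adjusted p = 0.00548) and Ndufs4 (0.48, adjusted p = 0.00295). Of 11 further complex IV subunits, 4 rose with age, led by the muscle isoform Cox7a1 (0.83, adjusted p = 0.000696) and Cox7a2 (0.56, adjusted p = 0.00483). Of 6 mitochondrially encoded partners, 5 rose with age (median 0.88) and 5 with GB (median 2.09). Among them mt-Cytb, the cytochrome b of complex III, rose by 0.55 with age (adjusted p = 0.00518) and by 1.53 with GB (adjusted p = 9.8e-08). Mitochondrial genes have nuclear copies and mt-Atp8 overlaps mt-Atp6, so their counts are uncertain.

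With GB, 31 complex I subunits rose and 3 fell (median 1.24), with Ndufc1 at 2.43 (adjusted p = 1.23e-09) and Ndufb8 at 2.16 (adjusted p = 1.87e-07). Of the further complex IV subunits, 9 of 11 rose, the muscle isoforms Cox8b by 1.71 (adjusted p = 4.72e-08) and Cox6a2 by 1.42 (adjusted p = 6.01e-08) among them. Of 14 genes for coenzyme Q and cytochrome c supply, 1 rose with age, the coenzyme Q kinase-like protein Coq8a (0.38, adjusted p = 0.0482). With GB 3 rose and 3 fell, in each direction a share no larger than over all genes, with Coq4 at 1.24 (adjusted p = 0.000642) and Coq8a at -1.01 (adjusted p = 6.93e-06).

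Assembly factors, which build the complexes and are not part of them, were called with age in 2 of the 40 tested: Uqcc5 (0.62, adjusted p = 0.0299) and Ttc19 (0.42, adjusted p = 0.0127), both of complex III, a count near the share over all genes. With GB the complex III list had 6 of 9 up and 2 down, and Uqcc2 and Uqcc3, small factors for cytochrome b, rose by 2.97 (adjusted p = 4.29e-10) and 2.81 (adjusted p = 6.95e-10). In the complex IV list 11 of 22 rose and 6 fell, beside 24.4% and 28.8% of all genes. The copper chaperone Cox17 rose by 2.10 (adjusted p = 2.9e-08), and Taco1, which activates translation of mt-Co1, fell by 3.43 (adjusted p = 9.71e-09). For complex II, 3 of 4 rose, with Sdhaf4 at 1.25 (adjusted p = 3.7e-06) and Sdhaf3 at 1.20 (adjusted p = 2.25e-05). For complex V, a list too short to read against those shares, 3 of 5 rose and 1 fell: Atpaf1, which guards the beta subunit before assembly, at -1.38 (adjusted p = 4.23e-08), while Tmem242 rose by 0.92 (adjusted p = 2e-06).

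The ATP synthase inhibitor, listed as Atpif1, blocks the enzyme from running backwards. It had 3.59, 3.38 and 2.78 CPM in young vehicle, 3.73, 3.55 and 4.52 in aged vehicle and 18.9, 21.6 and 16.5 in GB libraries. The GB libraries lay above all vehicle libraries, with a log2 fold change of 2.27 (adjusted p = 2.98e-07), and age gave 0.28 (adjusted p = 0.381).

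Markers of fibre type and of other cells were summed in the same libraries. The 10 slow fibre markers summed to 1794 to 2480 CPM in young vehicle, 176 to 254 CPM in aged vehicle and 1574 to 1976 CPM in GB libraries. Of them 9 fell with age and 9 rose with GB. The 8 endothelial markers summed to 406 to 430 CPM, 600.3 to 645 CPM and 317 to 379.6 CPM. The 6 red cell markers summed to 233 to 515 CPM, 1158 to 2129.9 CPM and 687 to 782 CPM, and the 7 adipocyte markers to 155 to 264 CPM, 47.9 to 73.2 CPM and 184 to 345 CPM, with Ucp1 at 0 in all aged libraries. The 5 smooth muscle markers summed to 289 to 315 CPM, 609 to 710.5 CPM and 367 to 406 CPM, and the 6 macrophage markers to 141 to 172 CPM, 156 to 182 CPM and 112 to 122 CPM. The part of these markers in the results was not tested.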

How the data were processed

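Per the file headers and the values, the authors deposited a table of unnormalized gene counts (56791 genes, 9 libraries). Per the labels' protocols, TRIzol and chloroform were used for RNA extraction and a KAPA mRNA kit for the libraries. HISAT2, SAMtools, FastQC, DESeq2 and the builds GRCm39 and mm10 stand in the submitters' processing notes. How reads were counted, with which annotation and strand setting, is not given in the sources used here, so genes that overlap others or have near-identical copies are uncertain. Symbols are those of the table (Atp5b is now Atp5f1b, Atp5g1 to Atp5g3 are now Atp5mc1 to Atp5mc3).

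The test was edgeR 4.0.16 (R 4.3.3) with filterByExpr (minimum count 10, minimum total 15), TMM factors and 1 robust quasi-likelihood fit of all 9 libraries with a mean per group. Two-sided p-values were adjusted by Benjamini-Hochberg over 17534 genes, with calls under 0.05. The SE is the size of the log2 fold change divided by the square root of F. Coding length came from the principal transcript of each symbol in GENCODE vM21 (GRCm38), promoters from RefSeq. Members and lists were chosen with earlier results of these data known. Named are all members, with every library's value for those highest per kilobase over all libraries (Sdhb, Uqcr10, Cox6b1 and Atp5b), at either end of each comparison or against their group, and up to 2 called genes per pathway list. Alternatives were other scalings, filters, models (DESeq2 1.42.0, limma-voom with limma 3.58.1), thresholds, a length offset, a replicate block and leaving out each library; offsets for coding length, and for it with GC content, were added after seeing the data (lowess, span 0.3). In simulated counts (200 of 16885 genes changed, aged against young vehicle), 12.2% of 1.5-fold, 78.7% of 2-fold and 100% of 4-fold changes were recovered among genes of at least 2 CPM. The changed genes were drawn at random, so these shares do not measure recovery for the highly counted members. The 10 pseudogene symbols were left out.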

Additional observations from a re-analysis of the deposited data

How the results depend on the processing

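Every member had at least 59465 counts in total. No age fold change of a member changed sign in any alternative. The age count of 15 rises was 6 at an adjusted p under 0.01, 2 with a log2 fold change of at least 0.5, 24 with the coding length and GC offset, and 6 to 15 leaving out 1 library each. With GB, 24 rises became 11 with the coding length offset and 11 with coding length and GC, and 22 to 26 leaving out 1 library each. The 7 falls became 14 with library totals, 11 with the length offset, 14 with coding length, 15 with coding length and GC, and 6 to 7 leaving out 1 library each. The members' GB median of 0.91 was 0.34 with library totals, 1.00 with upper-quartile factors, 0.30 with the length offset, -0.0031 with coding length, 0.042 with coding length and GC, and 0.83 to 0.93 leaving out 1 library each. Median member levels of 253, 315 and 501.1 CPM (young vehicle, aged vehicle, GB) were 287, 360 and 386 CPM with library totals. Over all genes, the 757 age rises were 1185 with DESeq2, 1180 with only the 2 groups compared, 332 at 0.01 and 377 to 708 leaving out 1 library each. The 751 age falls were 318 at 0.01 and 371 to 748, and the GB calls were 2030 rises and 8421 falls with library totals.

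These GB log2 fold changes turned. With library totals: Atp5c1 -0.38, Atp5g2 -0.027, Atp5pb -0.54, Cycs -0.49, Sdhb -0.39, Sdhc -0.35 and Uqcrc1 -0.32. With the length offset: Atp5c1 -0.32, Atp5g2 -0.056, Cox6b1 -0.33, Cox7b -0.074, Cycs -0.0045 and Sdhb -0.23. With coding length: Atp5c1 -0.0031, Atp5g2 -0.22, Atp5mpl -0.28, Atp5pb -0.27, Cox6b1 -0.51, Cox7b -0.49, Cox7c -0.13, Cycs -0.89, Sdhb -0.064 and Sdhc -0.43. With coding length and GC: Atp5g2 -0.46, Atp5mpl -0.36, Atp5pb -0.16, Cox6b1 -0.47, Cox7b -0.30, Cycs -0.71, Sdhb -0.21, Sdhc -0.30 and Uqcr10 -0.032. Atp5pb was -0.038 with no filter and -0.050 to 0.093 leaving out 1 library each (-0.032 without aged vehicle replicate 1), and Cyc1 was 0.031 with upper-quartile factors and -0.18 to 0.043 leaving out 1 library each. The cause was not tested.

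Deviations from the group mean hardly correlated between same-numbered libraries (-0.0282 to 0.0566 over all genes tested), which cannot exclude a shared batch. In every group replicates 2 and 3 differed less from each other than from replicate 1. The chi-square per degree of freedom between their counts was 16.6 to 18.7, against 33.5 to 60.4 for pairs with replicate 1. The reason was not tested. With the replicate block, 14 members rose with age, and 24 GB rises became 22 with 7 falls.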
